A study of Arabidopsis thaliana with 12 samples.

Results

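The leaf transcriptome of wild-type Arabidopsis thaliana seedlings (Col) raised with the nanoplastic PS-NH2 was set against that of seedlings raised without particles. All 23480 genes of the authors' deposited comparison of these leaves were included, of 24912 loci listed in any of the 4 deposited comparisons. PS-NH2 names polystyrene particles that carry amino groups and PS-SO3H polystyrene particles that carry sulfonic acid groups. The seedlings were 10 days old and stood on 1/2 MS, the control alone and the treated plates with particles at 50 μg/ml. Each group held 2 leaf libraries, 4 in the comparison and 12 in the series, which also holds leaf with PS-SO3H and root of all 3 treatments. Nothing in the labels says that the 2 libraries of a group came from separate plants or plates, so the spread behind a p-value may be technical.

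For each gene the deposited table lists the level fitted in either group, the log2 ratio of PS-NH2 to control with its p-value, and that p after adjustment. It has no value for a library. Levels are fitted values on the scale of reads adjusted by size factors. They are not plain means of scaled reads, since the same leaf control libraries are fitted differently beside PS-SO3H, as given below. Without division by gene length, levels rank groups within a gene and not genes among themselves. The read depth of each library is unknown. Wherever a gene is compared with control, the level, the log2 value and the adjusted p come from the authors' deposited tables. The value after ± is a standard error (SE), worked back from the ratio and its p-value. A gene is said to have risen or fallen only where the authors' adjusted p was below 0.05. In whole leaves, fewer cells of a type and less RNA per cell cannot be told apart.

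Plant leaf cells sense microbes and damage with receptor kinases at the cell surface and with receptors inside the cell. Kinase cascades and calcium signals pass the signal on to WRKY, ERF and NAC transcription factors, and the hormones salicylic acid, jasmonate and ethylene spread it. Defence in this species also uses sulfur- and tryptophan-derived compounds made on demand. Leaves capture light with chlorophyll-binding antenna proteins encoded in the nucleus, which serve reaction centres encoded partly in the plastid. In the cold, CBF factors switch on COR genes, whose products protect membranes and proteins.

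With PS-NH2, 891 genes rose (3.79%) and 1738 fell (7.4%) of 23480, or 11.2% in either direction. Counts for the lists and families below are to be read against these shares. The median gene had a log2 fold change of -0.00065. Scaling by size factors centres the typical ratio, so this median cannot show whether the whole table shifted. Falls were also larger than rises. Among genes that fell, 33 had a log2 fold change below -3, 182 lay between -3 and -2, 630 between -2 and -1, and 893 above -1. Among genes that rose, 12 lay above 2, 119 between 1 and 2, and 760 below 1. The series text gives a stricter threshold, a false discovery rate no higher than 0.001 with a log2 size of 1 or more. Under it 100 genes rose (0.426%) and 637 fell (2.71%), together 3.14%.

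**Figure D1:**
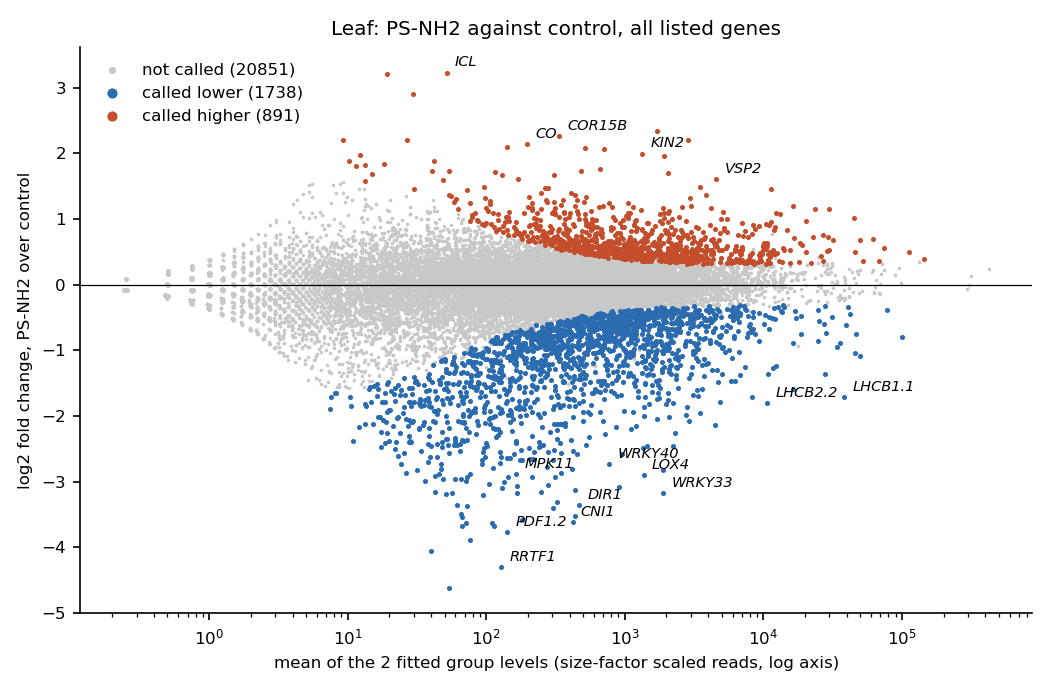
Log2 fold change of PS-NH2 over control in leaf (y) against the mean of the 2 fitted group levels (x, log axis) for the 23480 listed genes, with called genes coloured. The 1738 lower genes reach -4.62, and between mean levels of 10 and 100 there are 35 higher against 287 lower genes.

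The genes that fell had taken 15.2% of the summed level in control and took 8.80% with PS-NH2. Those that rose went from 9.97% to 14.9%. Direction varied with expression level. Of 4461 genes with a mean level of 10 to 100, 35 rose and 287 fell, while of 277 genes above 10000, 58 rose and 41 fell. Among 4201 genes below 10, 1 rose and 4 fell, and the fold changes narrow towards 0 at the lowest levels, as the funnel on the left of the scatter plot shows. The share that fell also went up with transcript length, from 3.76% of the shortest group (65 to 981 bases) of 5 equal groups through 6.47%, 7.12% and 8.44% to 11.2% of the longest (2288 to 16444 bases). The median SE fell from 0.30 to 0.18 over the same groups, and its part in that order was not tested. Over the 5 nuclear chromosomes, 3.32% to 4.35% of genes rose and 6.9% to 8.07% fell.

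Of called genes that have a symbol and whose mean level reached 100, the highest was COR15B (AT2G42530), a chloroplast protein gene of the cold response, at 2.26 ± 0.26. CO (AT5G15840), the photoperiod gene that switches on flowering, went from a level of 72.8 to 322 (2.14 ± 0.25). UGT85A3, a glycosyltransferase gene, had a log2 95% interval of 1.54 to 2.66, RABG3B, a small GTPase gene of vacuolar traffic, had 1.74 ± 0.18, and the anthocyanin glycosyltransferase gene UF3GT had 1.72 ± 0.31. The thionin gene THI2.2, which encodes a small defence peptide, rose from 148 to 471 (1.67 ± 0.23), and the beta-glucosidase gene BGLU28 had 1.61 ± 0.25. Lowest was RRTF1 (AT4G34410), an ERF-type factor of redox and wound responses, which went from 244 to 12.3 (-4.31 ± 0.37). FTM1, named for the floral transition and annotated as a desaturase gene, fell from 803 to 69.5 (-3.53 ± 0.22). The receptor-like protein gene RLP38 had -3.17 ± 0.33 and CYP81F2, whose enzyme modifies indole glucosinolates, had -3.09 ± 0.38. The other lowest genes, from WRKY33 to DIR1, belong to groups described below.

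Short DNA motifs that bind known classes of plant regulators were searched in the 250 bases before the start of each of 23282 nuclear genes, on both strands. Starts were taken from the TAIR10.1 annotation. The motifs were the W-box core TTGAC of WRKY factors, the CRT/DRE core CCGAC of CBF factors, the G-box CACGTG, the GCC-box GCCGCC of ERF factors, the evening element AAATATCT of clock-controlled genes and the telo-box AAACCCTA of growth genes. None of the 6 contains another. The W-box core was found in 55.8% of promoters of genes that fell (95% exact binomial interval 53.4 to 58.2), in 40.8% of those that rose (37.5 to 44.1) and in 45.1% of all. Promoters with at least 2 such cores made up 23.9% of the genes that fell and 14.1% of all. The evening element was found in 8.53% of promoters of genes that rose (6.75 to 10.6), 4.49% of those that fell (3.57 to 5.58) and 4.91% of all. The G-box was in 7.6%, 10% and 7.15%, the CRT/DRE core in 14.3%, 10.9% and 12.5%, and the GCC-box in 1.5%, 1.9% and 1.93%, in the same order. The telo-box was in 2.19%, 1.32% and 3.74%. A match describes letters only, and the intervals cover counting error alone.

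**Figure D2:**
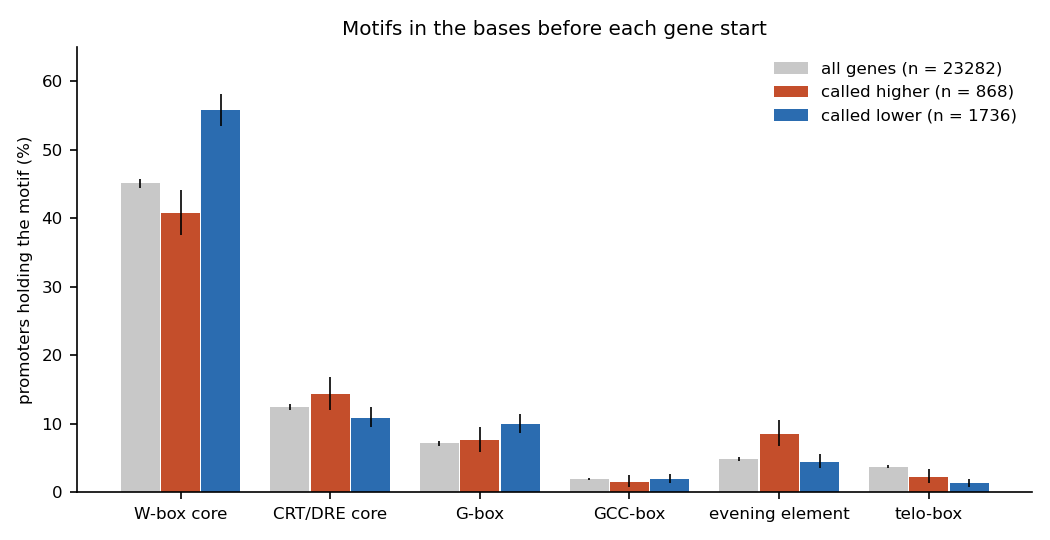
Percent of promoters (y) that hold each of 6 motifs (x) among all genes, genes called higher and genes called lower, with 95% exact binomial intervals as bars. The W-box core stands at 55.8% for lower genes against 45.1% of all, and the evening element at 8.53% for higher genes against 4.91%.

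Promoters of genes at both ends of the comparison are shown 5′ to 3′ on the gene's own strand, ending at the base before the start (TAIR10.1), with matches to 1 motif per gene in capitals and matches to the other motifs not marked. WRKY33 (chr2:16107985-16108234, plus strand) and CRK10 (chr4:12137745-12137994, plus strand) stand for the genes that fell and hold the W-box core, PDF1.2A (chr5:17907639-17907888, minus strand) for a GCC-box, and PDI6 (chr1:29126398-29126647, plus strand) for a G-box of the endoplasmic reticulum group.
WRKY33: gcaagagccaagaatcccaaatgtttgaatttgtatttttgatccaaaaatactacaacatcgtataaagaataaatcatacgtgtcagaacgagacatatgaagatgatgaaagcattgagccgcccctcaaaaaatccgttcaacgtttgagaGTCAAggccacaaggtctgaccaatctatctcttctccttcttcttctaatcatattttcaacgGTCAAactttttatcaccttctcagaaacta
CRK10: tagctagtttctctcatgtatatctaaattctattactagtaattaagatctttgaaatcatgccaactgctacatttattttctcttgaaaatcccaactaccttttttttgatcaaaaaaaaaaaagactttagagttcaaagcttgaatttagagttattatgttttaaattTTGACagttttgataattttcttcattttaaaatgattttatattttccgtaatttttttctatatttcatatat
PDF1.2A: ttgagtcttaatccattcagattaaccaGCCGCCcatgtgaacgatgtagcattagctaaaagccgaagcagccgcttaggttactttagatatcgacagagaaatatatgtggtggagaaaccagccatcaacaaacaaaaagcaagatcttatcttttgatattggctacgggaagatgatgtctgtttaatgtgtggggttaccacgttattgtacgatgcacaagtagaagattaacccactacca
PDI6: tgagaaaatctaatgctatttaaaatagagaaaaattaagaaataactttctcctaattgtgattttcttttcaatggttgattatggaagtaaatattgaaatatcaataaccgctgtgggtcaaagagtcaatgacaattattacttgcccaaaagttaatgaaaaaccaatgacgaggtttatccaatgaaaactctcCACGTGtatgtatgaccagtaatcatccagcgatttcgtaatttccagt
Among genes that rose, COR15A (chr2:17712331-17712580, minus strand) and LTI30 (chr3:18940393-18940642, plus strand) hold 2 and 3 CRT/DRE cores, in capitals.
COR15A: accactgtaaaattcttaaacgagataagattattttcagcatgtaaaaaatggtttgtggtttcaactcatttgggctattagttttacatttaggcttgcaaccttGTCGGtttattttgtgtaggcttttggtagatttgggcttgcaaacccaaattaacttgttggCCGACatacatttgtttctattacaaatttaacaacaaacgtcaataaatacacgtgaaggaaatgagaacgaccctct
LTI30: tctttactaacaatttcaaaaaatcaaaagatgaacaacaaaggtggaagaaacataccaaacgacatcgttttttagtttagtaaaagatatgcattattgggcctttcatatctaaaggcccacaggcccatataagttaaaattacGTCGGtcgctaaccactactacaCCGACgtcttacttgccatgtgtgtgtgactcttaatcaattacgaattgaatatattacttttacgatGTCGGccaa
The values of these 6 genes are given with their groups.

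Receptors at the cell surface were mostly lower with PS-NH2. Of 19 pattern receptors and their partners 12 fell and 1 rose, with a median of -0.60. SOBIR1, the kinase that works with receptor-like proteins, fell from a level of 4776 to 1491 (-1.68 ± 0.17, adjusted p = 1.02e-20). The chitin receptor genes LYK5 and LYK4 fell, at -1.87 ± 0.20 and -0.98 ± 0.20, and DORN1, the receptor of extracellular ATP, at -0.92 ± 0.20. PEPR1 and PEPR2, which perceive the damage peptides called Peps, fell by 0.60 and 1.08 on the log2 scale. RLP23, a receptor of a microbial peptide, went from 559 to 128, with a wide error (-2.13 ± 0.53). FLS2, the flagellin receptor, had -0.53 ± 0.17 and its partner kinase BIK1 -0.47 ± 0.15. FER, a receptor kinase of cell wall sensing and growth, was the member that rose, from 7316 to 9402 (0.36 ± 0.11). The calls of FER, FLS2 and BIK1 were lost under Benjamini-Yekutieli adjustment. Under the stricter threshold 3 members were lower. The co-receptor gene BAK1 had -0.13 ± 0.13 and CERK1 -0.14 ± 0.17, both without a call.

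Cysteine-rich receptor-like kinases (CRKs) are a large family of surface kinases many of which respond to pathogens. Of 39 listed, 21 fell and 0 rose, with a median of -0.76. CRK10 went from a level of 2733 to 659 (-2.05 ± 0.13, adjusted p = 2.23e-50), the smallest p of the family. CRK37 went from 123 to 10.6 (-3.54 ± 0.47) and CRK7 from 106 to 13.6 (-2.96 ± 0.46). The family sits in tandem arrays, and the largest run of neighbouring genes with the same call held 7 genes of chromosome 4 from CRK5 to CRK11, at -2.96 to -1.44. A second run on that chromosome, CRK36 to CRK40, held 5 genes. Near-identical neighbours can share reads, and how the authors counted such reads is not given in the sources used here. Over the nuclear genome, the next gene of a gene that fell had itself fallen in 12.1% of cases, against 7.46% of all, and for genes that rose the shares were 7.03% and 3.73%.

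The wall-associated kinases, which bind pectin, form another array. Of 4 listed, 3 fell. WAK3 went from 240.2 to 30.0 (a log2 95% interval of -3.77 to -2.23) and WAK2 from 2215 to 1533 (-0.53 ± 0.17). WAK1 fell from 4328 to 1677 with an SE of 0.40, where genes with a mean level of 1000 to 10000 had a median SE of 0.13. WAK4, at a level near 7, had -0.04 ± 0.57. This group and the methyltransferase, clock and LHCB1 groups below were chosen after their values were seen.

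Inside the cell, the mitogen-activated protein kinase cascade showed 7 lower and 0 higher of 14 genes. MPK3 fell from 4438 to 1119 (-1.99 ± 0.12, adjusted p = 4.63e-55) and MPK11 from 291 to 39.3 (-2.89 ± 0.34). Upstream, MEKK1 had -0.67 ± 0.14, MKK4 -0.90 ± 0.16 and MKK5 -0.56 ± 0.16. MPK6 and MPK4, which act beside MPK3, had 0.01 ± 0.13 and -0.14 ± 0.14 and were not called. AP2C1, a phosphatase that restrains the cascade, fell with it (-1.05 ± 0.20).

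Of 22 calcium sensors, channels and pumps 10 fell and 1 rose. CPK28 and CPK32, calcium-dependent kinases, had -1.47 ± 0.17 and -1.51 ± 0.14. The calmodulin-like gene CML37 fell from 86.9 to 11.1 (-2.96 ± 0.46). CNGC2, a channel of calcium entry, moved the other way, from 2137 to 5524 (1.37 ± 0.11, adjusted p = 2.64e-32), while CNGC4, its partner in a shared channel, fell by 0.47 on the log2 scale. Ubiquitin ligases of immunity gave 6 lower and 1 higher of 12. ATL31 (AT5G27420, listed as CNI1) fell from 776 to 63.0 (-3.62 ± 0.22), and PUB23 and PUB24, which damp receptor signals, had -1.74 ± 0.19 and -1.94 ± 0.24. BAH1, a ligase that limits salicylic acid, rose (0.64 ± 0.20). Under Benjamini-Yekutieli adjustment BAH1 and CNGC4 lost their calls.

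Intracellular receptors and the EDS1 hub, which relays their signal, gave 10 lower and 0 higher of 16. EDS1 fell from 955 to 310.1 (-1.62 ± 0.20) and its partner PAD4 from 870.1 to 345 (-1.33 ± 0.20). All 3 helper receptors fell, ADR1 at -1.29 ± 0.21, ADR1-L1 at -0.86 ± 0.15 and ADR1-L2 at -1.04 ± 0.17. The resistance genes RPP4 and SNC1, neighbours in one cluster, had -1.19 ± 0.14 and -0.70 ± 0.11. RPM1 (-0.29 ± 0.19), RPS4 (-0.15 ± 0.20) and SAG101 (-0.53 ± 0.23) were not called.

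**Figure D3:**
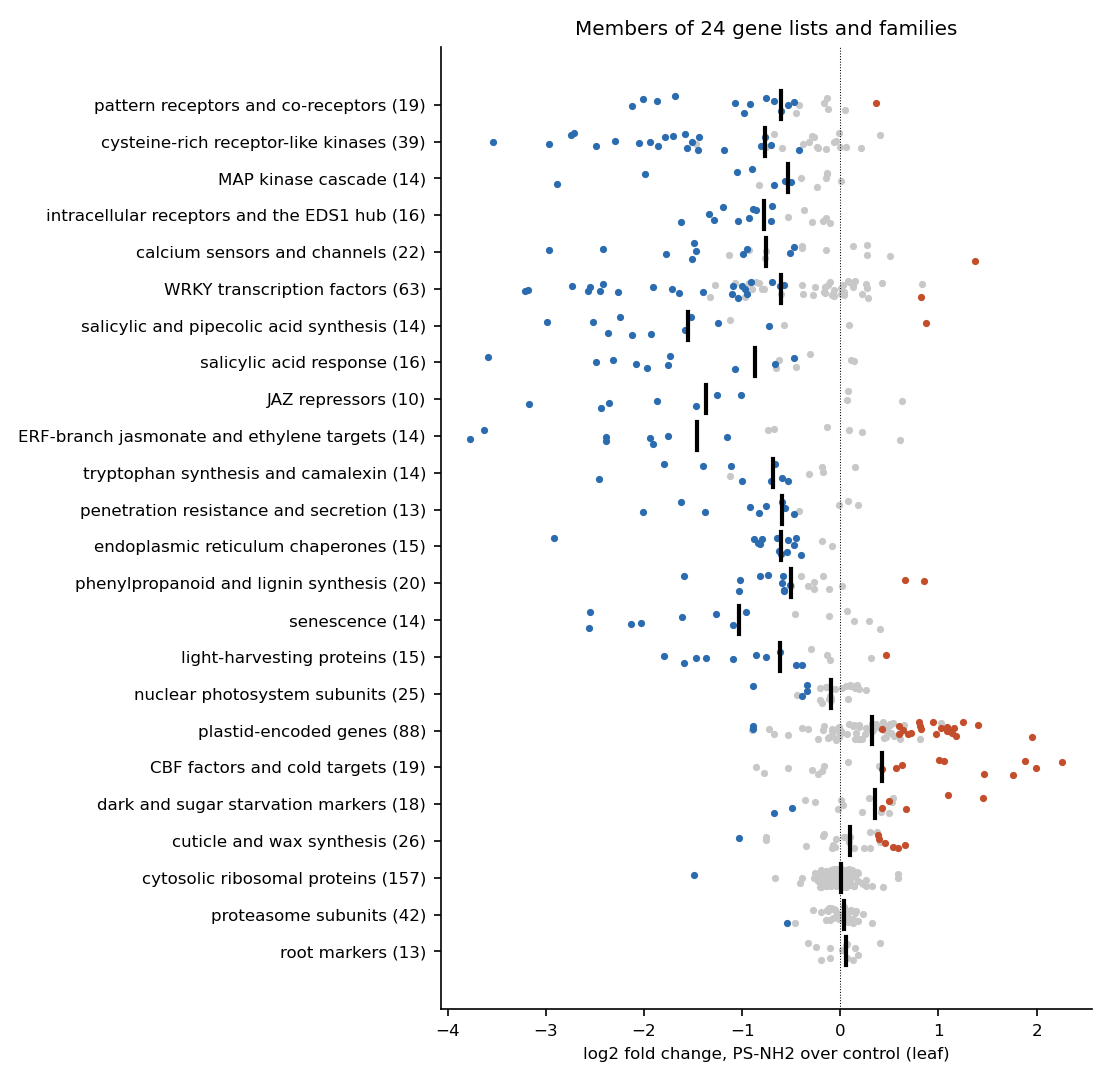
Log2 fold change of PS-NH2 over control in leaf (x) for each measured member of 24 lists and families (rows, members in parentheses), with called lower members in blue, called higher in red, others in grey and the list median as a black bar. The 15 lists from pattern receptors to senescence have medians from -1.55 to -0.51, plastid-encoded and cold lists sit above 0, and the 157 ribosomal protein genes lie around 0.

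Counts of transcription factors are read against the 7.4% of all genes that fell and the 3.79% that rose, and families were not tested against each other. Of 63 WRKY genes 22 fell (34.9%) and 1, WRKY29 (0.82 ± 0.29), rose. WRKY33, which directs camalexin synthesis, went from 3417 to 377 (-3.18 ± 0.14, adjusted p = 3.34e-104), the smallest p of the family. WRKY40 fell from 1341 to 201 (-2.74 ± 0.21), WRKY46 from 170.3 to 18.4 (-3.21 ± 0.39) and WRKY11 from 1265 to 404 (-1.65 ± 0.16). Of 52 ERF genes 12 fell and 2 rose, and the median of the family was 0.01. ERF11 had -2.67 ± 0.22 and ERF6 -2.15 ± 0.19, while ERF73, a factor of low-oxygen responses, rose (1.14 ± 0.27). All 7 zinc-finger genes of the ZAT and AZF group were called, 6 lower and 1 higher, among them ZAT11 at -3.16 ± 0.47. Of 74 NAC genes 13 fell and 0 rose, with NAC036 at -2.66 ± 0.28 and NAC102 at -1.26 ± 0.14. Of 104 MYB genes 10 fell (9.62%) and 2 rose, near the shares of all genes. MYB51, which controls indole glucosinolates, had -2.28 ± 0.17, and MYB4, a repressor of phenylpropanoid genes, rose (0.80 ± 0.22). Heat shock factors gave 1 lower, HSFB2A (-0.98 ± 0.21), of 15 (6.67%), near the share of all genes.

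Genes that make salicylic acid and pipecolic acid, the signals of systemic resistance, had a median of -1.55, with 10 of 14 lower and 1 higher. The regulators CBP60G and SARD1 came down from 571 to 131 and from 523 to 91.1. ICS1, the main isochorismate synthase, fell from 712 to 300.0 (-1.25 ± 0.23), whereas ICS2, its minor copy, rose from 80.4 to 147 (0.87 ± 0.30). The call of ICS2 was lost under Benjamini-Yekutieli adjustment. PBS3, which conjugates isochorismate, had -2.24 ± 0.29. ALD1 and FMO1, the pipecolic acid pair, had -1.93 ± 0.46 and -2.99 ± 0.51, at levels below 70. The hydroxylases that remove salicylic acid, DMR6 and DLO1, fell as well (-1.52 ± 0.40 and -2.36 ± 0.41).

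Of 16 response genes 10 fell and 0 rose, with a median of -0.87. The receptor genes were among them, NPR1 at -0.47 ± 0.16, NPR3 at -1.07 ± 0.17 and NPR4 at -0.66 ± 0.19. The TGA factors with which they work, TGA2, TGA3, TGA5 and TGA6, ranged from -0.45 to 0.13 and were not called. PR2, a glucanase gene, went from 2282 to 407 (-2.49 ± 0.44) and PR5, a thaumatin-like gene, from 609 to 183 (-1.74 ± 0.20). GRX480, a glutaredoxin gene that salicylic acid induces, had -3.58 ± 0.37. PR1 had the widest error of the list, an SE of 0.57. The authors' PS-SO3H table fits PR2 at 3029 and PR5 at 629.8 in the same control libraries. Senescence genes gave 8 lower and 0 higher of 14, with NAP at -2.56 ± 0.31, WRKY53 at -2.55 ± 0.24 and NAC6 (ORE1) at -2.03 ± 0.37. The dark-inducible SEN1 (0.29 ± 0.39) and the chlorophyll breakdown genes PAO (-0.12 ± 0.15) and SGR1 (-0.46 ± 0.22) were not called.

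Jasmonate genes did not move as 1 block. In the synthesis list 3 of 17 rose and 4 fell. LOX2, the main leaf lipoxygenase of the pathway, rose from 9924 to 22682 (1.19 ± 0.16), AOC2 from 3252 to 6993 (a log2 95% interval of 0.80 to 1.41) and AOS, the enzyme between them, from 5749 to 7949 (0.47 ± 0.12). LOX4 went the other way, from 2409.7 to 323 (-2.90 ± 0.16), and so did AOC3 (-2.15 ± 0.25) and OPCL1 (-1.81 ± 0.15). Paralogs thus differed in direction within a step. The copy AOC1 had -0.19 ± 0.37 and was not called.

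JAZ repressors, which jasmonate removes and whose genes jasmonate induces, gave 7 lower and 0 higher of 10. JAZ7 had -3.17 ± 0.26, JAZ10 -2.44 ± 0.22 and JAZ6 -1.26 ± 0.14. Downstream of MYC2, which itself fell from 4393 to 1212 (-1.86 ± 0.12), 2 of 14 genes rose and 7 fell. The vegetative storage protein genes VSP2 and VSP1 were those that rose, VSP2 from 2266 to 6883 (1.60 ± 0.12) and VSP1 from 805 to 1518 (0.92 ± 0.16). NAC055 (-2.35 ± 0.26), RD26 (-1.80 ± 0.19) and TAT3 (-2.46 ± 0.44) fell. In the branch shared with ethylene 8 of 14 fell and 0 rose. The defensin gene PDF1.2A, whose promoter is shown above, went from 265 to 19.4 (-3.77 ± 0.34) and its near copy PDF1.2C from 132 to 10.7 (-3.63 ± 0.42). ORA59, the factor that drives them, had -1.16 ± 0.23 and HEL, a chitin-binding protein gene, -1.76 ± 0.19.

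Chemical and structural defences followed the same direction. In tryptophan and camalexin synthesis 9 of 14 fell and 0 rose. ASA1, the first committed enzyme of tryptophan synthesis, had -1.11 ± 0.16. CYP79B2, which turns tryptophan into the precursor of camalexin and indole glucosinolates, had -1.01 ± 0.14, and CYP71A13 and PAD3, specific to camalexin, had -2.46 ± 0.50 and -1.79 ± 0.53. The indole glucosinolate methyltransferase genes IGMT1, IGMT2, IGMT3 and IGMT4, in 1 array, all fell, at -1.47, -2.58, -1.85 and -0.41, while IGMT5, elsewhere on that chromosome, rose from 700.1 to 1289 (0.88 ± 0.15). Penetration resistance, the secretion of defence compounds at the site of attack, gave 9 lower of 13 with 0 higher. The syntaxin genes SYP121 and SYP122 had -0.92 ± 0.17 and -1.63 ± 0.14, PEN2 -0.75 ± 0.13 and the transporter gene ABCG36 -0.59 ± 0.14. PMR4, the callose synthase gene of this response, had 0.08 ± 0.12 and was not called.

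Phenylpropanoid and lignin genes gave 10 lower and 2 higher of 20. The entry enzyme split by copy. PAL1 fell from 4152 to 2052 (-1.02 ± 0.14) and PAL2 from 4881 to 2769.9 (-0.82 ± 0.15), while PAL3 rose from 876 to 1588 (0.86 ± 0.15) and PAL4 from 176 to 277 (0.66 ± 0.23). C4H (-0.57 ± 0.12), CCR1 (-0.59 ± 0.12) and CAD4 (-0.74 ± 0.15), later steps towards lignin, fell. Among lipid transfer genes, DIR1, whose protein carries a signal of systemic resistance, went from 855 to 83.3 (-3.36 ± 0.20), and AZI1 of the same route had -1.30 ± 0.56 without a call. Among 13 secreted peptide genes, RALFL32 fell from 104 to 4.22 and PSK4 from 439.8 to 204 (-1.11 ± 0.22), and RALF23 rose from 2090.0 to 3548 (0.76 ± 0.13).

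Chaperones of the endoplasmic reticulum, which fold secreted and membrane proteins, fell almost as a group, 13 of 15 with 0 higher and a median of -0.61. The changes were small and had small errors, and under the stricter threshold of the series text 1 of the 15 was lower. The Hsp70 genes BIP1 and BIP2 went from 5119.9 to 3539 (-0.53 ± 0.12) and from 4393 to 2496 (-0.82 ± 0.12). These 2 copies are nearly identical, so reads may have been split between them. BIP3, the stress-induced copy, went from 75.3 to 9.95 (-2.92 ± 0.51). The Hsp90 gene HSP90.7 had -0.65 ± 0.13, the calreticulin genes CRT1B and CRT3 had -0.61 ± 0.12 and -0.84 ± 0.18, CNX1 had -0.47 ± 0.11 and the disulfide isomerase gene PDI6 -0.87 ± 0.16. Of the stress sensors that induce these genes, BZIP60 fell (-0.80 ± 0.13) and BZIP28 (-0.19 ± 0.15) was not called. The G-box was found in 7 of the 15 promoters, or 46.7% (95% exact binomial interval 21.3 to 73.4), against 7.15% of all promoters.

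Most light-harvesting genes fell, and 23.9% of plastid-encoded genes rose. Of 15 LHCA and LHCB genes outside the LHCB1 set 10 fell and 1 rose, with a median of -0.62, and their summed level went from 581841 to 388290. LHCB2.2 (AT2G05070), a mobile antenna gene of photosystem II, went from 16631 to 4776 (-1.80 ± 0.11, adjusted p = 1.84e-61), and LHCB2.1 and LHCB2.3 had -1.59 ± 0.10 and -1.47 ± 0.12. LHCB3 went from 40212 to 15598 (-1.37 ± 0.10). Of the antenna of photosystem I, LHCA4 fell from 68018 to 31939 (-1.09 ± 0.10), LHCA1 had -0.62 ± 0.10 and LHCA3 -0.45 ± 0.10. LHCA2 (-0.13 ± 0.12) and LHCB4.1 (-0.10 ± 0.11) were not called, and Lhca6 rose (0.46 ± 0.15).

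The 5 LHCB1 genes, which share most of their sequence, gave 3 lower. LHCB1.1 fell from 58712 to 17853 (-1.72 ± 0.12), LHCB1.2 had -0.88 ± 0.16 and LHCB1.5 -0.79 ± 0.12, while LHCB1.3, the most highly listed of them at 305298, had -0.01 ± 0.12. Chlorophyll synthesis gave 5 lower and 1 higher of 24. Those that fell included HEMA1, the gate of the pathway (-0.74 ± 0.10), GUN5, a magnesium chelatase subunit (-0.95 ± 0.11), CRD1 (-0.74 ± 0.11) and CAO, which makes chlorophyll b (-1.35 ± 0.17). CHLI1 (0.13 ± 0.11) and PORB (0.02 ± 0.11) were not called. Of photoprotection genes, ZEP (-0.78 ± 0.13) and BCH2 (-1.84 ± 0.23) fell and NPQ1, which encodes the reverse enzyme of ZEP, rose (0.52 ± 0.13).

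Of 25 nuclear genes of photosystem subunits 4 fell (16%) against 7.4% of all genes, 0 rose, and the median was -0.10. PSAD-2 was the largest fall (-0.89 ± 0.11), and its paralog PSAD-1 had -0.21 ± 0.12. Of 88 plastid-encoded genes 21 rose and 2 fell, with a median of 0.33, and their summed level went from 123499 to 199823. That was 0.536% of the summed level of all genes in control and 0.864% with PS-NH2. How much plastid RNA each library kept is unknown, and its part in this rise was not tested. ATPE, of the ATP synthase, rose from 14698 to 32844 (1.16 ± 0.13), the photosystem II reaction centre gene PSBD from 4818 to 9285 (0.95 ± 0.16), NDHC from 816 to 1803 (1.14 ± 0.14) and PSBI from 225 to 593 (a log2 95% interval of 1.04 to 1.76). The ribosomal protein gene RPS14 of the plastid rose from 784 to 3042 (1.96 ± 0.40). The pairs RPL2.1 and RPL2.2, and NDHB.1 and NDHB.2, have identical values, as copies in the inverted repeat of the plastid genome. Each copy counts as a gene here, RPL2 among those that rose and NDHB as both that fell. Of 108 mitochondrion-encoded genes 2 rose and 0 fell, but only 38 reached a mean level of 10, below which few genes were called. Calvin cycle and photorespiration genes gave 4 higher, among them CP12-2 (0.53 ± 0.12) and CA1 (0.38 ± 0.14), and 1 lower, CAT2 (-0.49 ± 0.14), of 28.

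**Figure D4:**
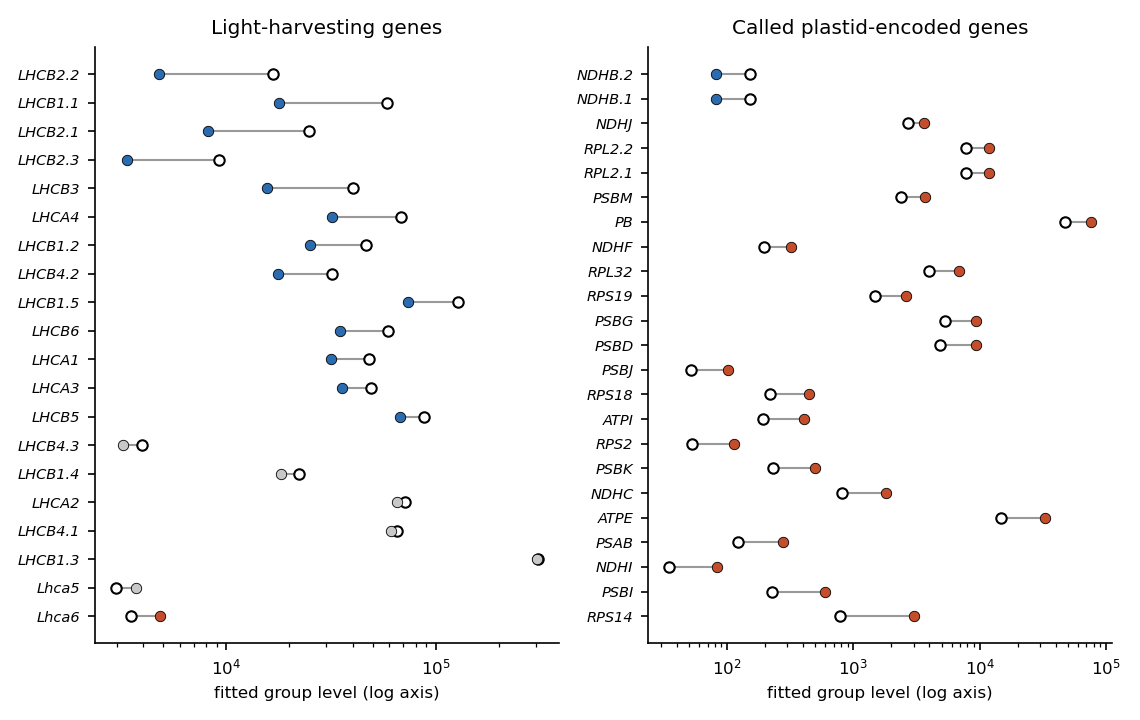
Fitted group level (x, log axis) in control (open circles) and with PS-NH2 (filled, blue lower, red higher, grey not called) for 20 light-harvesting genes (left) and the 23 called plastid-encoded genes (right). LHCB2.2 falls from 16631 to 4776, and 21 of the plastid genes shown move to the right.

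Clock genes, whose transcripts cycle over the day, were lower in 7 and higher in 3 of 16. The morning genes CCA1 and LHY fell, CCA1 from 1308 to 492 (-1.41 ± 0.18) and LHY from 2672 to 1416 (-0.92 ± 0.18). LNK1 fell from 232 to 27.1 (-3.10 ± 0.32), LNK2 had -1.25 ± 0.14, RVE8 -0.97 ± 0.19, PRR7 -0.98 ± 0.25 and GI -1.18 ± 0.26. JMJD5, a histone demethylase gene of the clock, rose from 1159.9 to 2617 (1.17 ± 0.18), FKF1, the blue-light partner of GI, had 1.12 ± 0.24, and PRR5 0.60 ± 0.20. TOC1 (0.05 ± 0.15), ELF3 (0.28 ± 0.13) and LUX (0.01 ± 0.17) were not called. The labels give no time of harvest, and its part in any result here was not tested.

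Light and flowering regulators included genes that fell and genes that rose. In a phytochrome and shade list 8 of 24 fell (33.3%) and 2 rose (8.33%), against 7.4% and 3.79% of all genes. PIF5 fell from 1528 to 579.9 (-1.40 ± 0.14), PIF4 had -1.21 ± 0.21 and PIF3 -0.94 ± 0.19, while PIF7 rose (0.66 ± 0.22). HY5 and its homologue HYH, which promote light responses, had -0.72 ± 0.24 and -0.96 ± 0.23. Of 23 flowering genes 4 rose and 4 fell. Besides CO, the repressors AP2 (0.87 ± 0.16) and TOE1 (0.57 ± 0.15) rose. FT, the mobile flowering signal that CO induces, went from 85.5 to 35.6 (-1.26 ± 0.40), and CDF1 and CDF2, repressors of CO, had -1.07 ± 0.37 and -0.78 ± 0.22. BBX16, a relative of CO, fell from 478 to 69.3 (-2.79 ± 0.24).

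Of 19 genes of the CBF pathway 10 rose and 0 fell. KIN2 went from 535 to 2138 (2.00 ± 0.17) and its near copy KIN1 from 18.0 to 66.3 (1.88 ± 0.43). COR15A went from 147 to 407 (1.47 ± 0.23), COR27 from 301 to 1017 (1.76 ± 0.19), COR47 from 3296 to 6619.6 (1.01 ± 0.11) and LTI30 had 1.06 ± 0.34. COR15A and COR15B are neighbours with similar sequence. The factors CBF1 (-0.85 ± 0.56), CBF2 (-0.78 ± 0.35), CBF3 (-0.29 ± 0.46) and ICE1 (-0.17 ± 0.13) were not called. Of the list's promoters 6 of 19 held a CRT/DRE core (31.6%, interval 12.6 to 56.6) and 6 an evening element, against 12.5% and 4.91% of all.

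Abscisic acid genes gave 4 higher and 4 lower of 22. All 4 that rose were receptor genes, PYR1 (0.76 ± 0.12), PYL4 (0.54 ± 0.13), PYL5 (0.48 ± 0.15) and PYL6 (0.66 ± 0.19), and the receptor gene PYL7 fell (-0.78 ± 0.21). The hydroxylase genes that break the hormone down, CYP707A3 (-1.71 ± 0.22) and CYP707A2 (-1.31 ± 0.40), fell. The hormone's markers RD29B (1.31 ± 0.56) and RAB18 (0.32 ± 0.22) were not called.

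Sugar and storage genes showed a small set of large changes. ICL, isocitrate lyase of the glyoxylate cycle, was 1 of 2 called genes in a list of 20, at 3.23 ± 0.44, and the partner enzyme gene MLS had 0.74 ± 0.43 without a call. PPDK was the other (-0.63 ± 0.13, lower). The mean level of ICL lay between 10 and 100, below the level asked of the highest genes named above. The list's 5% higher and 5% lower stood near the 3.79% and 7.4% of all genes. Of 18 dark and sugar starvation markers 5 rose and 2 fell. DRM2 (AT2G33830), a dormancy-associated gene, rose from 6033 to 16564 (1.46 ± 0.16), DRM1 from 7841 to 16770.2 (a log2 95% interval of 0.84 to 1.35) and DIN10, a raffinose enzyme gene, from 38506 to 61440.3 (0.67 ± 0.13). The trehalose-phosphate synthase-like genes TPS8 and TPS11 fell (-0.49 ± 0.14 and -0.68 ± 0.14). ASN1, a further marker of starvation, had 0.54 ± 0.43 and was not called. ERD5, proline dehydrogenase, rose from 18484 to 40998 (1.15 ± 0.12), and the galactosidase gene SIP2 from 22090.3 to 36679.6 (0.73 ± 0.11). GBSS1, the starch synthase bound to granules, fell from 2147 to 591 (-1.86 ± 0.15), while SBE2.1 (0.63 ± 0.13), ISA3 (0.61 ± 0.15) and DPE1 (0.61 ± 0.16) rose, among 23 starch genes. Of 12 SWEET sugar exporters SWEET4 (1.74 ± 0.40), SWEET11 (0.35 ± 0.12) and SWEET12 (0.63 ± 0.13) rose and SWEET10 fell from 359 to 72.7 (-2.30 ± 0.24).

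Growth and wall genes moved in both directions. Of 28 xyloglucan-modifying XTH genes 6 rose and 5 fell. XTH16 (1.09 ± 0.12), XTH15 (1.00 ± 0.17), XTH9 (0.73 ± 0.14) and XTH4 (0.57 ± 0.13) rose, and XTH7 (-0.74 ± 0.13), XTH18 (-1.13 ± 0.23) and XTH19 (-1.48 ± 0.39) fell. Expansins gave 4 higher and 2 lower of 22. Cuticle and wax genes gave 6 higher and 1 lower of 26. KCS9 (0.59 ± 0.11), CER2 (0.66 ± 0.14) and CER3 (0.53 ± 0.12), of wax chain building, rose, and MYB96, a regulator of wax genes, fell (-1.03 ± 0.20). In leaf polarity and growth, KAN1 rose from 207 to 506 (1.29 ± 0.20) and GRF3 from 398 to 771 (0.95 ± 0.16), and the size genes ARGOS (-1.46 ± 0.35) and ARL (-0.90 ± 0.22) fell.

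Among growth hormones, cytokinin genes gave 7 lower and 0 higher of 26, including the response genes ARR5 (-1.63 ± 0.31), ARR7 (-0.96 ± 0.21) and ARR9 (-0.93 ± 0.20). Gibberellin genes gave 4 higher and 3 lower of 25. GASA1 (0.63 ± 0.12), GASA4 (0.48 ± 0.15) and GASA6 (0.72 ± 0.18) rose with the repressor gene GAI (0.63 ± 0.14), and the repressor gene RGL3 fell (-1.07 ± 0.21). Brassinosteroid genes gave 1 higher (4.55%) and 2 lower (9.09%) of 22, near the 3.79% and 7.4% of all genes. The receptor gene BRI1 had -0.55 ± 0.11. Auxin lists, set against 7.4% of all genes that fell, gave 1 of 24 Aux/IAA repressors (IAA2, -0.53 ± 0.15), 1 of 16 SAUR genes (SAUR21, -0.71 ± 0.25) and 1 of 4 GH3 genes (GH3.3, -0.98 ± 0.22) lower and 0 higher.

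Groups that respond to foreign chemicals or damaged organelles are read against the 3.79% of all genes that rose and the 7.4% that fell. Of 16 xenobiotic detoxification genes 1 rose, OPR2 (0.61 ± 0.19), and 3 fell, among them the transporter gene ABCG40 (-1.96 ± 0.49). Of 40 tau and phi glutathione S-transferases 1 rose, GSTF12 of the anthocyanin route (1.03 ± 0.30), and 11 fell, GSTF2 with a wide error (-1.47 ± 0.43). Mitochondrial stress genes gave 4 lower and 0 higher of 11. OM66 fell from 598 to 139 (-2.11 ± 0.24), and AOX1A, the alternative oxidase gene, had -0.07 ± 0.15. Autophagy gave 1 higher, ATG8E (0.46 ± 0.16), of 20.

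Genes that serve every cell were also counted. Of 157 cytosolic ribosomal protein genes 1 fell and 0 rose, and their summed level was 520865 in control and 518827 with PS-NH2. Of 42 proteasome genes 1, PA200 (-0.54 ± 0.18), fell. Of 35 histone genes 2 rose, HIS1-3 (1.22 ± 0.31) and HTB9 (0.35 ± 0.12), or 5.71% against 3.79% of all genes.

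Markers of cell types were compared because the share of a cell type in the harvested leaf can move with a treatment. Guard cell (6), stomatal lineage (8), phloem (7), xylem (8), shoot meristem (9) and root (13) markers gave 0 calls in either direction. Their summed levels in control and with PS-NH2 were 1281 and 1204, 1116 and 1213, 12096 and 13443, 3413 and 3043, 2364 and 2641, and 14831 and 13815, in that order. Over all genes 11.2% were called, so 0 calls in lists this small do not show that cell shares stayed the same. A mean level of 10 was reached by 6 of 9 shoot meristem markers and 5 of 13 root markers. Below that level 1 gene rose and 4 fell of 4201. Of the root sum, 13456 in control was BGLU23, a beta-glucosidase gene, while the endodermis genes CASP1 and CASP2 stood at 24.2 and 16.6 and the root tip gene PLT2 at 0.946. Of 11 epidermis markers FDH rose (0.33 ± 0.11). Mesophyll markers gave 3 lower, all antenna genes, and 1 higher, CA1, of 10, with RBCS1A at 0.24 ± 0.12 and RCA at -0.07 ± 0.13. Seed markers gave 2 higher of 10, OLEO1 from 4.39 to 16.2 (1.89 ± 0.57) and CRA1 from 61.7 to 197 (1.68 ± 0.57). Their summed level was 196 in control and 335 with PS-NH2, and its part in the result for ICL, a gene of seedling oil use, was not tested.

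PS-SO3H was compared in leaf with the same control libraries, so values are set side by side and their likeness is not measured. There, 431 genes rose (1.83%) and 618 fell (2.63%) of 23529, or 4.46% in all. The log2 value with PS-SO3H was subtracted from that with PS-NH2 and the difference tested. It was higher for 135 genes (0.583%) and lower for 599 (2.59%) of 23150 in both tables, or 3.17%, at an adjusted p below 0.05. Here p came from the normal distribution with both squared SEs added, adjusted by Benjamini-Hochberg. Shared controls make that SE too large. For 1304 of these genes the 2 tables fit the same control libraries at levels more than 0.5 apart on the log2 scale after centring.

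Defence lists held both genes that fell with either particle and genes that differed. WRKY33 fell with PS-SO3H too, at -2.18 ± 0.14, and the difference passed as lower (adjusted p = 0.000115). MPK3 had -1.99 with PS-NH2 and -1.46 ± 0.13 with PS-SO3H, with a difference that did not pass (-0.53 ± 0.18, adjusted p = 0.0803). Salicylic acid synthesis gave 2 higher and 1 lower with PS-SO3H, and 10 of its 14 genes passed as lower in the difference. PR2 had 0.90 ± 0.41 there (adjusted p = 0.289), with a difference of -3.38 ± 0.60, and PDF1.2A 0.16 ± 0.41, with -3.93 ± 0.54. Others that were lowest by difference were FTM1 (-3.33 ± 0.29), WAK3 (-3.19 ± 0.58) and CRK6 (-3.19 ± 0.58). Of 16 detoxification genes 9 rose and 0 fell with PS-SO3H, where PS-NH2 gave 1 higher and 3 lower, and 5 passed as lower in the difference.

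The endoplasmic reticulum list had 0 of 15 called with PS-SO3H and a median of -0.02, and 5 members passed as lower in the difference, BIP2 by -0.75 ± 0.19 (adjusted p = 0.00514). Light-harvesting genes had 0 of 15 called there, and 7 passed as lower in the difference, LHCB2.2 by -1.53 ± 0.18 (adjusted p = 3.57e-13). CCA1 differed by -1.41 ± 0.23 and JMJD5 by 1.38 ± 0.26. Of cold targets 3 rose with PS-SO3H, and COR27 (1.62 ± 0.29), COR15B (1.56 ± 0.39) and COR47 passed as higher in the difference, which KIN2 (0.64 ± 0.26, adjusted p = 0.237) did not. PP2-A13, a phloem lectin-like gene, differed by 1.25 ± 0.26 and GASA6 by 1.22 ± 0.26. ICL, whose mean level in the PS-NH2 comparison was below 100, differed by 3.54 ± 0.56.

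In root, PS-NH2 gave 387 higher genes (1.62%) and 643 lower (2.7%) of 23839, or 4.32%, against root controls. The difference of leaf minus root passed for 452 genes as higher (1.99%) and 1042 as lower (4.59%) of 22714, or 6.58%. Genes hardly detected in root can have small SEs there, so a difference can pass where no root response could show. BBX16 passed as lower with root levels of 0.523 in control and 0.494 with PS-NH2 and a root SE of 0.12. Among genes with a mean level of at least 10 in both organs, 418 passed as higher and 943 as lower. Leaf and root values come from separate tables. WRKY33 also fell in root, at -0.74 ± 0.12, and its difference was -2.44 ± 0.19. Salicylic acid synthesis gave 1 lower and 0 higher of 13 in root, and detoxification 6 higher and 0 lower of 16. Light-harvesting genes gave 0 calls of 15 in root, and LHCB2.2 differed by -2.07 ± 0.23. BIP2 differed by -0.65 ± 0.14 and CCA1 by -1.45 ± 0.24. KIN1, KIN2 and COR15A rose in root too, at 1.64 ± 0.15, 0.81 ± 0.09 and 1.73 ± 0.36, while COR47 fell there (-0.34 ± 0.09).

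Some genes were called in opposite directions in the organs. FLA13, an arabinogalactan protein gene, rose in leaf from 5312 to 8889.9 (0.74 ± 0.11) and fell in root (-1.44 ± 0.24). PYL6 and SWEET12, which rose in leaf, also fell in root, PYL6 at -1.16 ± 0.15. NIT4, a nitrilase gene of cyanide detoxification, fell in leaf from 857 to 223 (-1.94 ± 0.18) and rose in root (1.14 ± 0.23). ACS7, an ethylene synthesis gene, had -2.25 ± 0.31 and 0.78 ± 0.23, APR1 of sulfate assimilation -2.46 ± 0.12 and 0.28 ± 0.09, and DUR3, a urea transporter gene, -1.89 ± 0.26 and 0.73 ± 0.12, leaf before root. AZI1 fell in root (-3.23 ± 0.11) and had -1.30 ± 0.56 in leaf without a call.

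**Figure D5:**
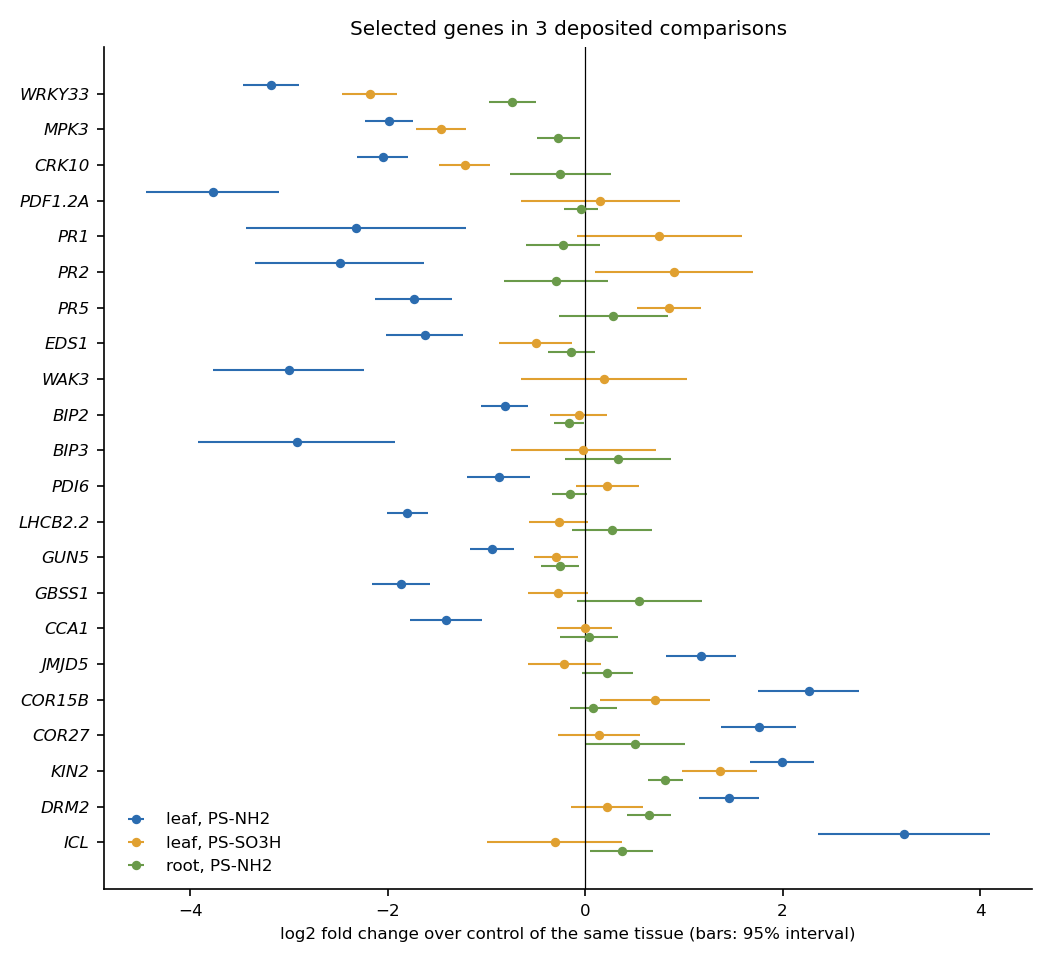
Log2 fold change over the control of the same tissue (x) with its 95% interval for 22 genes (rows) in leaf with PS-NH2, leaf with PS-SO3H and root with PS-NH2. PDF1.2A, LHCB2.2 and BIP3 stand apart in leaf with PS-NH2, while WRKY33 and MPK3 lie below 0 in both leaf comparisons. In root, PDF1.2A had levels of 0.258 in control and 0.250 with PS-NH2, too low for a fall to show. COR15B had 0.489 and 0.518 there, and PR2 had 3.03 and 2.47. The leaf comparisons share their control libraries.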

How the data were processed

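Total RNA of leaf was sequenced after Trizol extraction and random-primed reverse transcription, per the labels' protocols. The submitters' processing notes name TAIR10. The series text describes a small RNA library and the aligner SOAP2, so which of its steps apply is unclear, and the counting program is not given in the sources used here. The authors used a DESeq2 method, per the titles of the deposited tables. The deposited signal is 1 level per group, called fitted here because the deposited log2 fold change equals the log2 ratio of the levels to within 1.36e-14, and p-values and adjusted p-values are the authors'. The adjusted p matched a Benjamini-Hochberg recomputation to within 2.39e-15. The authors' up and down marks require an adjusted p below 0.05 and an absolute log2 value of 1 or more.

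The table gives no value per library, so depth and the precision it gives are unknown, and no count test was run. The SE is the fold change divided by the normal quantile of its p-value, with a median of 0.22. Differences used a 2-sided normal p. Scripts (Python 3.11.15, pandas 2.3.3, scipy 1.17.1) were tested on simulated data. Names came from the table or RefSeq's TAIR10.1 annotation, with 23284 of 23480 loci matched and 9888 with a symbol. Promoters were read from TAIR10.1 by its own gene starts, since the deposited tables have no coordinates. Genes were named by rule: the 15 highest and 15 lowest called genes that have a symbol and a mean level of 100 or more, up to 4 called members per direction of each list by p, members of lists of up to 15, and the 5 highest and 5 lowest of each tested difference among genes that have a symbol and reach a mean level of 100 in both tables compared. Not every such gene is discussed, and other genes named, among them uncalled members and the promoters shown, were chosen after their values were seen. Members and lists were chosen with earlier results of these data known. Alternatives were other thresholds, centring, filters, adjustments, a pseudocount of 10 and the shared-control covariance.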

Additional observations from a re-analysis of the deposited data

Results flagged for a closer look

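Effects that differed between particles or organs by the test of the difference are given here as values. For PS-NH2 minus PS-SO3H in leaf, 135 genes were higher and 599 lower. The log2 differences were 1.62 for COR27, 1.56 for COR15B, 1.38 for JMJD5, 1.25 for PP2-A13 and 1.22 for GASA6. For ICL, whose mean level in the PS-NH2 comparison was below 100, it was 3.54. On the lower side they were -3.93 for PDF1.2 (PDF1.2A), -3.38 for BGL2 (PR2), -3.33 for FTM1, -3.19 for WAK3, -3.19 for CRK6, -1.53 for LHCB2.2, -0.75 for BIP2 and -1.41 for CCA1.

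For leaf minus root with PS-NH2, 452 genes were higher and 1042 lower, and these counts include genes hardly detected in root. The log2 differences were 2.18 for FLA13, 1.93 for AZI1, 1.82 for PYL6, 1.69 for RABG3B and 1.63 for SWEET12. They were -3.08 for NIT4, -3.03 for ACS7, -2.83 for CNI1 (ATL31), -2.74 for APR1, -2.62 for DUR3, -2.07 for LHCB2.2, -0.65 for BIP2 and -1.45 for CCA1. Single genes were picked as the 5 highest and 5 lowest that have a symbol and reach a mean level of 100 in both tables, or with their values known. Genes below that level in either table can lie further out, and the values compared come from separate tables. With 2 libraries a group, no outlying library could be looked for.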

How the results depend on the processing

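The leaf PS-NH2 counts of 891 higher and 1738 lower became 100 and 637 at an adjusted p of at most 0.001 with an absolute log2 of at least 1, 131 and 845 by the authors' marks, and 111 and 791 by the level ratio with a pseudocount of 10. Benjamini-Yekutieli adjustment gave 470 higher and 1189 lower. For PS-NH2 minus PS-SO3H the counts of 135 and 599 became 15 and 192 under the stricter threshold, 48 and 314 under Benjamini-Yekutieli, and 463 and 1259 with the covariance of the shared controls taken out. For leaf minus root, 452 and 1042 became 73 and 361, and 213 and 609. Re-centring on the median gene, which stood at -0.00065, and a minimum mean level of 10 kept every count within 1.5 times. Size factors already centre the typical gene, so re-centring could move little. Fewer genes are called where the threshold asks for more, and the cause of other moves was not tested. More members fell than rose in 45 of 71 lists and families. Under the stricter threshold 81 of 142 list counts moved by over 1.5 times, such as pattern receptors from 12 lower to 3, endoplasmic reticulum chaperones from 13 to 1, phenylpropanoid genes from 10 to 1, penetration resistance from 9 to 2 and plastid-encoded genes from 21 higher to 8, and under re-centring none did. Members of larger families, such as WRKY and histone genes, were checked singly only if also in a smaller list or at the extremes. The calls of their other members were not checked under Benjamini-Yekutieli. Of 334 called genes in the smaller lists or at the extremes, 80 lost their call under that adjustment. Those named in the text were FLS2, BIK1, FER, MKK5, CNGC4, BAH1, ICS2, NPR1, NPR4, PAD3, PAL4, IGMT4, WAK1, WAK2, OPR2, ATG8E, LTI30, CYP707A2, PYL5, PYL6, TPS8, SWEET11, PIF7, HY5, FT, CDF1, CDF2, PRR5, GASA4, IAA2, SAUR21, FDH, CA1, Lhca6, CRA1 and OLEO1. The 3 alternatives run on these 334 genes were re-centring, the level filter and the Benjamini-Yekutieli adjustment. The filter and the adjustment leave a log2 value unchanged, and re-centring took off only the median of -0.00065. No call could therefore reverse under them.

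Under the stricter threshold, promoters of higher genes held the W-box core in 44.4%, the CRT/DRE core in 17.8%, the G-box in 10% and the evening element in 11.1%. The 637 promoters of lower genes held the W-box core in 61.1% (57.2 to 64.9), the GCC-box in 2.67% (1.56 to 4.24) and the evening element in 5.97% (4.26 to 8.1).

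No paired analysis was possible because the tables give no value per library, and for the same reason no library was left out. A p-value from 2 libraries a group rests on the spread the authors' method modelled, and few genes at low levels were called.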
